A study of Mus musculus with 9 samples.

Results

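Rab GTPases and the SNARE proteins of the Vamp, Stx and Snap families were followed in mouse spleen CD11b+ cells. A probe set was taken as a member if the platform annotation gave it 1 gene symbol that starts with Rab, Vamp, Stx or Snap followed by a digit. The rule looks only at the name, and it gave 79 of the 12488 probe sets on the array, for 60 of the 8252 genes named by a single symbol: 39 with a Rab symbol, 10 syntaxins (Stx), 7 Vamp genes and 4 Snap genes. Not all of them are what the name says. The rule also takes in 5 genes for proteins that are neither a Rab GTPase nor a SNARE, and 2 transcripts named as opposite-strand partners, Rab10os and Rab26os. The proteins are the Rab exchange factors Rab3ip and Rab3il1, the Rab11 effector Rab11fip5, Rab5if, and the clathrin assembly protein Snap91.

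CD11b+ cells (cells that carry integrin alpha M, in spleen mainly neutrophils, monocytes and macrophages) came by sorting from spleen, the mice being females 8 to 12 weeks old, and their RNA was measured on Affymetrix MG-U74Av2 arrays. There were 3 groups of 3 arrays: cells of tumor-free mice, cells of tumor-bearing mice at time 0 (called fresh here), and cells of such mice kept for 24 h in complete medium (called cultured). No tumor-free cells were cultured, so cultured against tumor-free differs by tumor and culture together. The labels used here name neither the tumor nor the mouse strain, and they do not say whether replicates came from separate mice, so a p-value here reflects no more than the scatter among the arrays, which may be technical.

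Rab proteins are small GTPases that sit on membranes when bound to GTP and recruit motors, tethers and other effectors, so that each gives a compartment its address. SNAREs do the fusing: an R-SNARE on the vesicle (most Vamp proteins) zips together with Q-SNAREs on the target membrane (syntaxins and Snap proteins), and NSF with its adaptors pulls the spent complex apart again. In phagocytes the same machinery releases granules and cytokines, matures phagosomes through early and late endosome stages, and returns receptors to the cell surface.

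Values are MAS5 signals on a linear scale, and differences are between group means of log2(signal + 7.83), a scale that understates changes of dim genes. Of the 79 member probe sets 61 were bright enough on average to be tested, which covers 49 genes, and 5 of these had at least 1 signal below the offset of 7.83. A member is called changed where limma's adjusted p over all 8695 tested probe sets was below 0.05. One array per group was unlike the remaining pair: tumor-free 1 (r = 0.823 and 0.827 with its pair over the tested probe sets, against 0.957 within the pair), fresh 3 and cultured 3. As a possible batch, the arrays were also divided by bacterial spike-in signal into a high and a low class. The high class holds tumor-free 1, fresh 1 and 2 and cultured 1 and 2, and the low class the other 4. Log2 spike-in signals averaged 9.86 to 10.50 in the high and 8.99 to 9.77 in the low class. No clear gap separates the classes, so the line between them is a choice. In the high class the actin 3'/5' signal ratio, a sign of RNA quality, was 1.58 to 2.57, and in the low class 0.994 to 1.35. The myeloid markers were present throughout, Itgam (CD11b itself) at 243.8 to 954 and the summed signal of 8 genes at 11031 to 20416. Of 7 T cell markers 2 were below the offset on all arrays. Markers of other cells moved with the groups. The summed signal of 12 pancreatic acinar genes was 595.6 to 823 in tumor-free, 6119 to 10914 in fresh and 572 to 1103 in cultured cells, and 9 of 11 tested acinar genes rose in fresh cells and 8 of 11 fell in culture. The summed signal of 10 macrophage genes was 3674 to 11892 in tumor-free, 2199 to 2505 in fresh and 2702 to 4131 in cultured cells, and that of 12 neutrophil genes was 33478 to 47528, 52907 to 63983 and 16253 to 46976. In limma 3 of 8 tested macrophage genes fell in fresh against tumor-free cells, while of 12 neutrophil genes none was called there (5 at an unadjusted p below 0.05) and 2 fell in culture. Of the 8 macrophage genes 1 fell in cultured against fresh cells and none rose, although the summed signal was higher in culture. There 5 had negative and 3 positive differences. In cultured against tumor-free cells 4 of the macrophage genes were called lower and none higher. The summed signal of 6 erythroid genes was 530.4 to 2226 in tumor-free, 4794 to 6433 in fresh and 697 to 6971 in cultured cells. None of 5 tested erythroid genes was called by limma in any comparison, but all 5 were higher on every fresh than on every tumor-free array (4 at an unadjusted p below 0.05), and 4 were lower in culture at that level. The summed signal of 8 mast cell and basophil genes was 129 to 151 in tumor-free, 269.6 to 324 in fresh and 202 to 465 in cultured cells, with none of 4 tested genes called in any comparison (2, 0 and 1 at an unadjusted p below 0.05). Their part in the differences below was not tested, and in such sorted mixtures fewer cells of a type and less RNA per cell cannot be told apart.

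Few members were called, and few of all probe sets tested were. Most changes of 1 log2 unit went uncalled in a simulation, so a member not called may still have changed. In fresh against tumor-free cells 1 of the 61 tested members was called, Vamp7, and it was higher. Of all probe sets tested 0.943% were called higher, 0.955% lower and 1.9% in either direction. In cultured against fresh cells 3 were called, Stx4a, Stx2 and 1 Rab10 probe set, all higher in culture, where 1.52% of all probe sets were called higher, 1.17% lower and 2.69% in either direction. In cultured against tumor-free cells the same Rab10 probe set was the only member called, again higher, against 0.587% of all probe sets called higher, 0.644% lower and 1.23% in either direction. These calls are 1.64%, 4.92% and 1.64% of the tested members. An unadjusted p below 0.05 was reached by 10, 10 and 12 members in the 3 comparisons, that is 16.4%, 16.4% and 19.7%, against 16.7%, 16.3% and 14.1% of all probe sets. Non-overlapping groups were found for 13 members in the first comparison, 17 in the second and 16 in the third, or 21.3%, 27.9% and 26.2%, against 22.4%, 22.2% and 18.5% of all probe sets. The median difference over the members was 0.02, -0.04 and 0.04, beside 0.01, 0.02 and 0.05 over all probe sets. The comparisons share arrays, so they are not independent of each other. Leaving out 1 array gave 0 to 3, 0 to 3 and 0 to 4 called members. Without tumor-free 1 there were 3 in fresh against tumor-free cells (Vamp7 and Rab5a higher, Vamp5 lower) and 4 in cultured against tumor-free cells (Rab10, Rab11fip5 and Rab5a higher, Vamp5 lower).

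Rab10 was the only member gene called in more than 1 comparison. It is an exocytic Rab that moves cargo from the Golgi and recycling endosomes to the plasma membrane, and in macrophages it is known for carrying Toll-like receptor 4 to the surface. Its probe set 101933_at read 97.3, 109.8 and 93.7 on the tumor-free arrays, 153, 166 and 123 on the fresh arrays and 308, 378 and 254 on the cultured arrays. The 3 groups do not overlap, and the order is tumor-free, fresh, cultured. The means were 100.3 ± 8.49, 147 ± 22 and 313 ± 62.1 (SD, n = 3 each). Cultured cells exceeded fresh cells by 1.04 ± 0.24 (SE, adjusted p = 0.047) on the log2 scale and tumor-free cells by 1.56 ± 0.24 (SE, adjusted p = 0.0133). Fresh and tumor-free cells differed by 0.51 ± 0.24 (SE, adjusted p = 0.309), which did not pass.

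The other Rab10 probe set, 160149_at, read 98.2, 98.2 and 119 in tumor-free, 146, 165 and 196 in fresh and 304, 552 and 132 in cultured cells. All cultured arrays lie above all tumor-free arrays here too, but cultured 3 falls below all fresh arrays. The differences were 0.72 (adjusted p = 0.44) for cultured against fresh and 1.36 (adjusted p = 0.168) for cultured against tumor-free, and the second was called without cultured 3 (1.89, adjusted p = 0.0132). The probe set of Rab10os, the opposite-strand transcript, was at -0.32 (adjusted p = 0.703) and -0.04 (adjusted p = 0.978) in these comparisons. For 101933_at the call against fresh cells was lost without tumor-free 2 or 3, fresh 1, 2 or 3, or cultured 1 or 2 (adjusted p up to 0.194), and with median centring, the lower offset, no filter, only the 2 groups in the fit, no variance trend or the closest arrays averaged (up to 0.498). The call against tumor-free cells was lost without tumor-free 2 or 3 or cultured 1 or 2 (up to 0.0796) and with only the 2 groups in the fit or the closest arrays averaged (up to 0.401), while the difference stayed between 1.26 and 1.73 in all settings tried.

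Syntaxin 4 (Stx4a) and syntaxin 2 (Stx2) are Q-SNAREs of the plasma membrane, the target side of granule and vesicle release. Stx4a read 188, 165 and 175 in tumor-free, 93.1, 71.1 and 156 in fresh and 256, 315 and 283 in cultured cells. Fresh cells were lowest and cultured cells highest, with no overlap between any pair of groups. The means were 176 ± 11.6, 107 ± 43.8 and 285 ± 29.5 (SD, n = 3 each), and the rise in culture was 1.42 ± 0.28 (SE, adjusted p = 0.0235). Fresh against tumor-free was -0.75 ± 0.28 (SE, adjusted p = 0.212) and cultured against tumor-free 0.67 ± 0.28 (SE, adjusted p = 0.316). The call in culture was lost without fresh 1 or 2 or cultured 1 or 2 (adjusted p up to 0.115) and with median centring or averaged arrays (up to 0.395). Within the high and the low spike-in class the difference was 1.71 and 0.83, the second being cultured 3 minus fresh 3, 1 array each.

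Stx2 read 73.2, 138 and 104 in tumor-free, 54, 61.6 and 49.4 in fresh and 102, 321 and 274 in cultured cells. The fresh arrays are lowest and close together, whereas cultured 1 lies among the tumor-free arrays and well below cultured 2 and 3. The rise in culture was 1.79 ± 0.40 (SE, adjusted p = 0.0409), the largest positive difference of a member in that comparison. Fresh against tumor-free was -0.81 ± 0.40 (SE, adjusted p = 0.33), and cultured against tumor-free 0.98 ± 0.40 (SE, adjusted p = 0.296). The call was lost without tumor-free 2 or 3, fresh 1, 2 or 3, or cultured 2 or 3 (adjusted p up to 0.17), and with median centring, no filter, no variance trend or averaged arrays (up to 0.151). The rise was 1.53 and 2.30 within the high and low class, the second again from 1 array per group.

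The signals of these genes, of Vamp7 and Rab8b, and of the syntaxin 4 partner Stxbp3 are plotted by array.

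**Figure D1:**
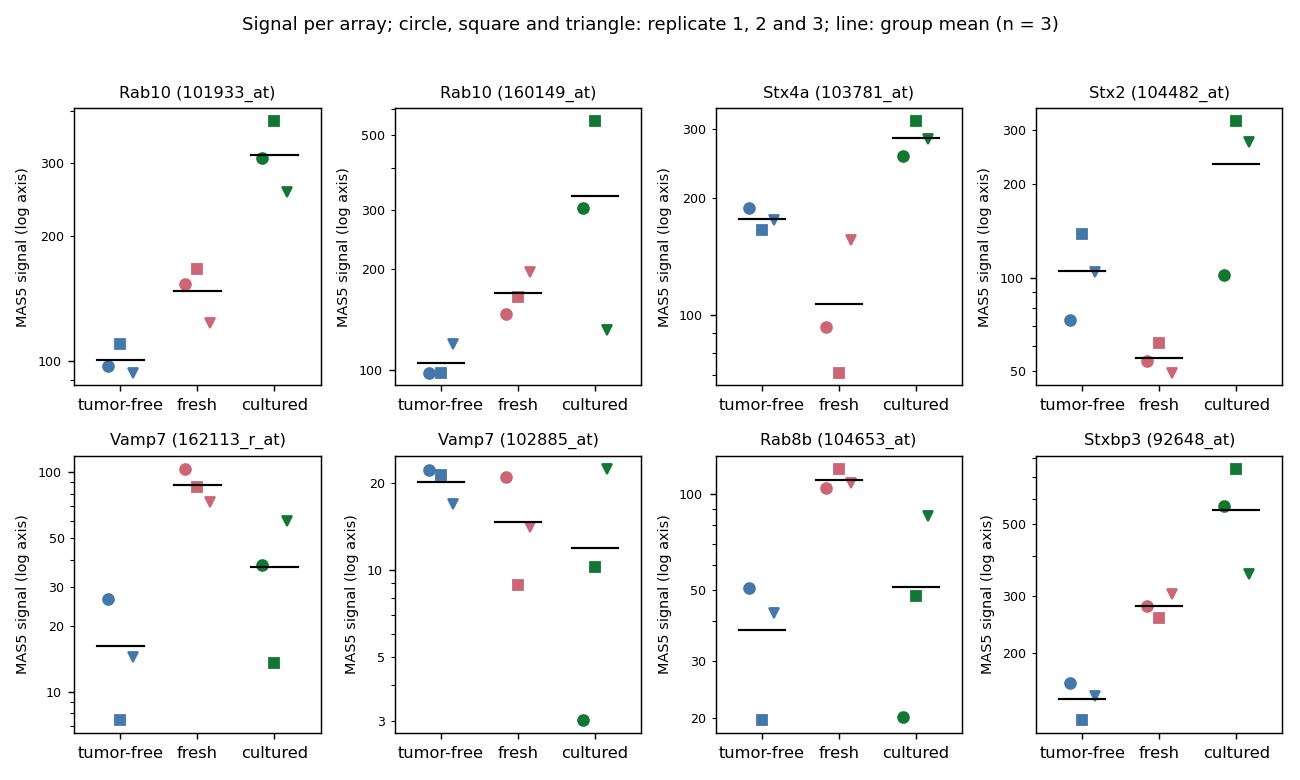
MAS5 signal (log axis, a range of its own for each panel) of 7 member probe sets and of Stxbp3 on the 9 arrays, by group; circles, squares and triangles are replicates 1, 2 and 3 and the line is the arithmetic mean (n = 3). Both Rab10 probe sets are higher on every cultured array than on any tumor-free array, Stx4a and Stx2 are lowest in fresh cells, and of the Vamp7 probe sets only 162113_r_at has its highest values there.

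The promoters of the 3 genes called in culture are shown because these genes rose in the same comparison. Each line gives the 250 bases before the gene's start, 5′ to 3′ on the gene's own strand, from RefSeq (GRCm38.p6). Capitals mark GC boxes (GGGCGG, or CCGCCC when read from the other strand).
Rab10 (chr12:3309970-3310219, minus strand): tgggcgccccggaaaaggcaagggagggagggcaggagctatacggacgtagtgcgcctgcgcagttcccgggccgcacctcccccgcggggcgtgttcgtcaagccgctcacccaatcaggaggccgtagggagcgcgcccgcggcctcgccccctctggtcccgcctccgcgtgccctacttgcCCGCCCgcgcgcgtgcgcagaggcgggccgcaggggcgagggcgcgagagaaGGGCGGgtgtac
Stx4a (chr7:127841558-127841807, plus strand): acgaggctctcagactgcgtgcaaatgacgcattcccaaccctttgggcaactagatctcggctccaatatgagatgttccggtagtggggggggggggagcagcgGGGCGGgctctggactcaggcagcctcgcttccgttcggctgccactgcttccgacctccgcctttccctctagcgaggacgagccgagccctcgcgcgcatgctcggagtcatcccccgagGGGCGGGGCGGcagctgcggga
Stx2 (chr5:129008573-129008822, minus strand, the first of 2 starts listed): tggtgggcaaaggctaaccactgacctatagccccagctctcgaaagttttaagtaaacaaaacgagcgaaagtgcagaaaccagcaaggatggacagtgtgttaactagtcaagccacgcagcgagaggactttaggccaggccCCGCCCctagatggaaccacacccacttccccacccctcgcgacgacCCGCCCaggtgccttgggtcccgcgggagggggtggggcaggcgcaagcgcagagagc
Rab10 and Stx2 each hold 2 GC boxes and Stx4a holds 3, of which 2 overlap. Such a box stands in 32.7% of the 32851 promoter windows of the table. CCAAT, read on both strands like every motif here, is found once in Rab10 and once in Stx4a and not in Stx2, and 33.8% of all windows hold it. No TATA box (TATAAA), E-box (CACGTG), AP-1 site (TGACTCA) or CRE (TGACGTCA) is in any of the 3 windows, against 12.4%, 6.02%, 4.46% and 1.55% of all windows. The share of G and C is 74.8% for Rab10, 66.4% for Stx4a and 60% for Stx2, beside a median of 52.4% over all windows. These are descriptions of letters in 3 genes picked by their calls. RefSeq windows were matched for 53 of the 60 member genes, but those of uncalled members were not set beside these 3. Whether any motif is enriched in genes that rose in culture was not tested.

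Partners of the plasma membrane syntaxins gave mixed values. Stxbp3 (Munc18c), a Sec1/Munc18 protein that binds syntaxin 4 and guides its assembly, is in the list of SNARE regulators and not a member. It read 162, 124 and 147 in tumor-free, 279, 257 and 304 in fresh and 568, 742 and 351 in cultured cells, so the 3 groups do not overlap. Its difference was 1.83 ± 0.28 (SE, adjusted p = 0.0133) for cultured against tumor-free, which passed, and 0.92 (adjusted p = 0.131) and 0.91 (adjusted p = 0.132) for the other comparisons. That call was lost without tumor-free 2 or 3 or cultured 1 or 2 (adjusted p up to 0.0722) and with only the 2 groups in the fit or averaged arrays (up to 0.417). Snap23, the Q-SNARE that pairs with these syntaxins outside neurons, read 75.5, 240.4 and 206 in tumor-free, 105, 123 and 222 in fresh and 126, 115 and 158 in cultured cells. Tumor-free 1 is its lowest value and tumor-free 2 its highest, and the difference in culture was -0.11 (adjusted p = 0.94), with a 95% interval of -1.03 to 0.81. Snap47 was at 0.17 (adjusted p = 0.827). Stx3, a syntaxin of granule release, has 3 probe sets, of which 2 were tested, and 100499_at read 198, 67.9 and 50.4 in tumor-free, 135, 129 and 182 in fresh and 37.6, 88.7 and 95.5 in cultured cells. All cultured arrays lie below all fresh arrays, with a difference of -1.01 (adjusted p = 0.315), while 100498_g_at was at -0.17 (adjusted p = 0.901). For cultured against tumor-free cells they were at -0.33 and 0.86. Of the 6 tested probe sets of plasma membrane syntaxins and Snap proteins, 2 rose in culture and none fell, and limma called none in the other comparisons (2 at an unadjusted p below 0.05 in each).

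Vamp7 was the only member called between fresh and tumor-free cells. It is an R-SNARE of late endosomes and lysosomes that serves their fusion with the cell surface. Its probe set 162113_r_at read 26.6, 7.41 and 14.4 in tumor-free, 104, 86 and 73.1 in fresh and 37.7, 13.5 and 60.0 in cultured cells. Every fresh array is above every other array, and cultured arrays overlap tumor-free ones. The means were 16.1 ± 9.7, 87.7 ± 15.4 and 37.1 ± 23.3 (SD, n = 3 each), the rise in fresh cells 2.06 ± 0.45 (SE, adjusted p = 0.0452), and cultured against fresh -1.23 ± 0.45 (SE, adjusted p = 0.19). The ending _r_at is the maker's mark for a probe set chosen under relaxed rules, and the other Vamp7 probe set did not show this order. That one, 102885_at, was too dim to be tested and read 22.2, 21.3 and 16.9 in tumor-free, 20.9, 8.89 and 14.1 in fresh and 3.02, 10.3 and 22.4 in cultured cells, with tumor-free not lower than fresh. The summed signals of the pancreatic acinar and of the neutrophil markers were also highest on the same 3 arrays, and their part in the Vamp7 difference was not tested. The call was lost without tumor-free 2 or 3, fresh 1, 2 or 3, or cultured 1 (adjusted p up to 0.195), and with median centring, the lower offset, no filter or averaged arrays (up to 0.39). A filter at 50% left this probe set out.

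No other vesicle R-SNARE was called. Vamp8, which serves late endosome fusion and granule release in leukocytes and in pancreatic acinar cells, read 874, 963 and 1144 in tumor-free, 870.0, 995 and 1288 in fresh and 636, 919.6 and 1228 in cultured cells on 100345_f_at. The groups overlap throughout, with 0.07 (adjusted p = 0.918) for fresh against tumor-free and an interval of -0.57 to 0.71. Its second probe set, 93305_f_at, was at -0.11 (adjusted p = 0.899) and at 0.46 (adjusted p = 0.583) in culture; the ending _f_at marks probes that related sequences may share. Vamp3, of recycling endosomes, read 45.5 to 152 in tumor-free, 103 to 124 in fresh and 87.6 to 135 in cultured cells (0.22, adjusted p = 0.791 for fresh against tumor-free), with tumor-free 1 lowest. Vamp2, best known from synaptic vesicles, read 157 to 169.7 in tumor-free, 126 to 157 in fresh and 98.6 to 153 in cultured cells on 98926_at, and all cultured arrays lie below all tumor-free ones, with a difference of -0.32 (adjusted p = 0.609). Vamp4, of the trans-Golgi network, was at 0.85 (adjusted p = 0.227) and 0.49 (adjusted p = 0.414) in culture on its 2 probe sets.

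Among the Rabs of secretion and exocytosis, Rab8b and Rab8a, close relatives of Rab10 that also serve Golgi to surface traffic, were not called in either direction. Rab8b read 50.8, 19.6 and 42.6 in tumor-free, 104, 120.2 and 108 in fresh and 20.1, 48 and 85.7 in cultured cells. Fresh arrays lie above all others, by 1.45 ± 0.44 (SE, adjusted p = 0.123) over tumor-free cells and with -1.17 ± 0.44 (SE, adjusted p = 0.202) in culture, and neither passed the test. Rab8a read 463, 645 and 629 in tumor-free, 507, 589.5 and 692 in fresh and 321, 415 and 487 in cultured cells. All its cultured arrays lie below all fresh arrays, with a difference of -0.55 (adjusted p = 0.318). Rab3d, known from the secretory granules of exocrine and blood cells, pancreatic acinar cells among them, read 77.9, 168 and 134 in tumor-free, 140.0, 129 and 220.2 in fresh and 231, 193 and 337 in cultured cells. Cultured arrays lie above tumor-free arrays (0.98, adjusted p = 0.213), and with spike-in class as the block that difference was 1.23 (adjusted p = 0.0179). That block raised the calls over all probe sets too, and no other setting tried called Rab3d in this comparison. Fresh against tumor-free cells it was at 0.37 (adjusted p = 0.596), with a 95% interval of -0.38 to 1.12. The acinar markers were highest in fresh cells, and their part in Rab3d was not tested. Rab12 was at 0.20 (adjusted p = 0.799) in culture and Rab3a, of synaptic vesicles, at 0.67 (adjusted p = 0.64) on its tested probe set. Of the 7 tested probe sets in this group, 6 were positive in fresh against tumor-free cells (median 0.37, none called by limma, 1 at an unadjusted p below 0.05), beside 4396 of 8695 over the array.

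The differences of all tested Rab-named members are plotted with their errors.

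**Figure D2:**
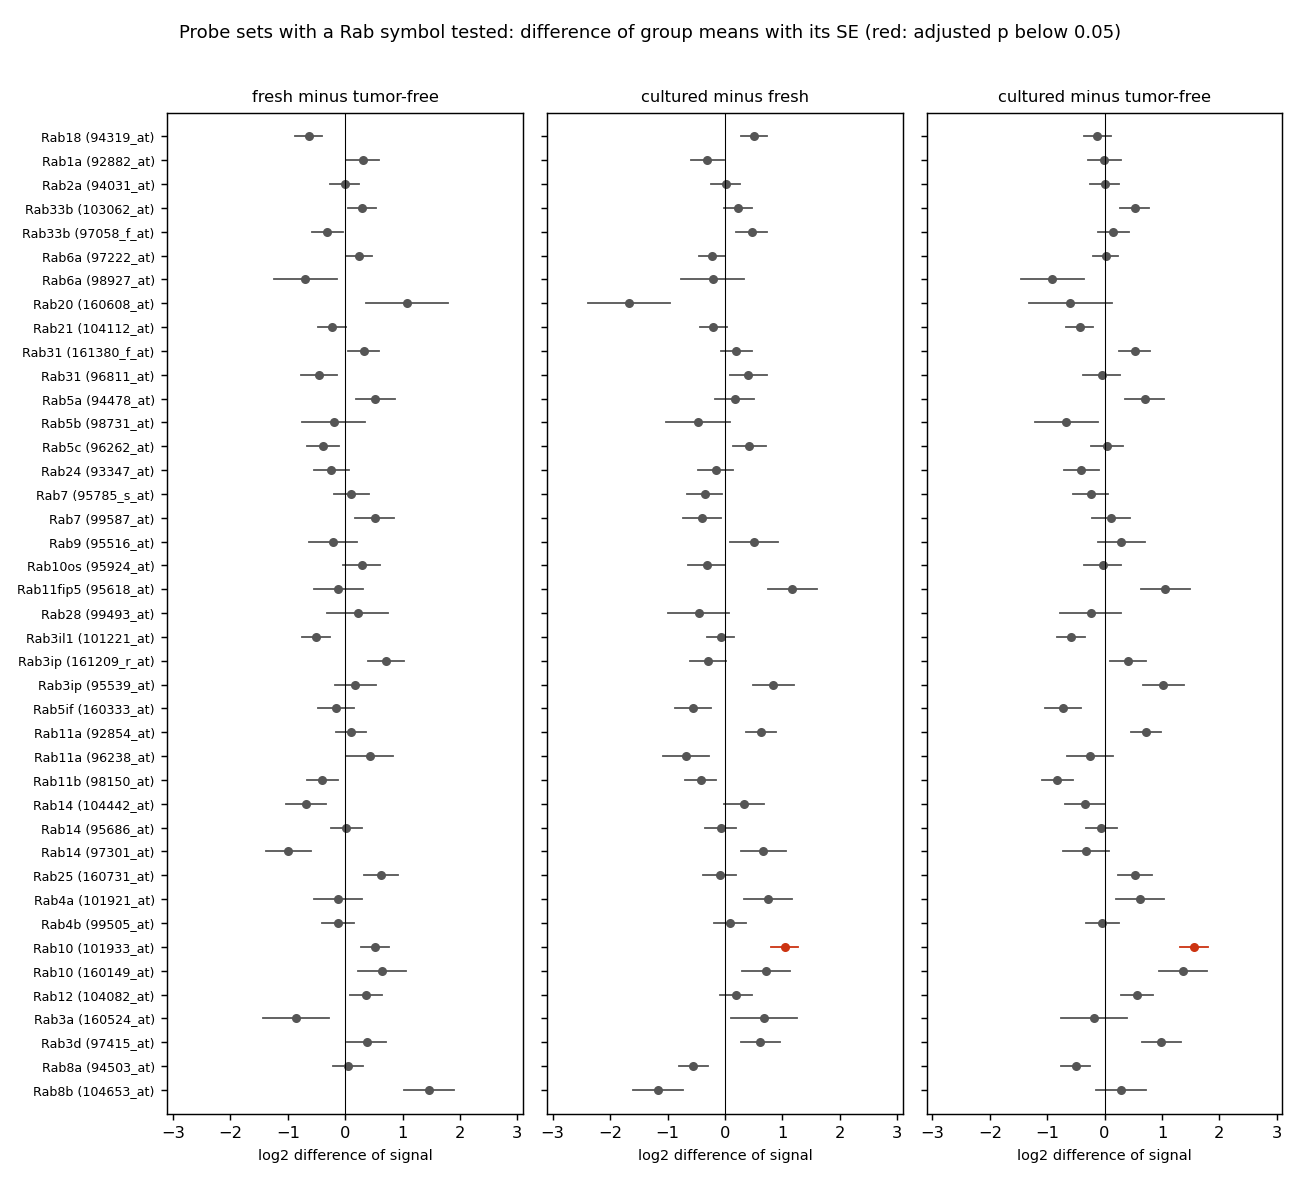
Difference between group means on the log2 scale (points) with its standard error (lines) for the 41 tested probe sets with a Rab symbol, in the 3 comparisons; n = 3 arrays per group, and red marks an adjusted p below 0.05. Rab10 (101933_at) is the only one in red, in both comparisons that involve cultured cells, and the values lie on both sides of 0 in every panel.

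Rabs of early endosomes did not pass the test in any comparison (7 tested probe sets, with 0, 1 and 0 at an unadjusted p below 0.05 in limma). Rab5a, which drives fusion of early endosomes and young phagosomes, read 448, 174 and 167 in tumor-free, 354, 362 and 315 in fresh and 374, 379.6 and 409.6 in cultured cells. Tumor-free 1 is above and tumor-free 2 and 3 are below every other array; the difference of fresh from tumor-free was 0.52 (adjusted p = 0.449), and Rab5a was called in that comparison and in cultured against tumor-free without tumor-free 1. Rab5c read 743, 410.0 and 385 in tumor-free, 414, 386 and 323 in fresh and 441, 531 and 547 in cultured cells, again with tumor-free 1 highest, and its cultured arrays lie above the fresh ones by 0.43 (adjusted p = 0.516). Rab20, linked to phagosome maturation, read 107, 24.2 and 29.7 in tumor-free, 59, 43.4 and 372 in fresh and 28, 16.2 and 38.9 in cultured cells. Fresh 3 stands far above the rest, and the difference in culture was -1.67 ± 0.72 (SE, adjusted p = 0.271), and -0.77 without fresh 3. Rab31, which moves cargo between the Golgi and endosomes, was at 0.32 (adjusted p = 0.558) on one probe set and -0.46 (adjusted p = 0.489) on the other in fresh against tumor-free cells. Rab21, which binds integrins in endocytosis, was lower on every cultured than on every tumor-free array (109 to 124 against 139 to 202, a difference of -0.43, adjusted p = 0.46).

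Recycling Rabs were not called by limma either (9 tested probe sets, with 1, 1 and 2 at an unadjusted p below 0.05). Rab11a and Rab11b both mark the recycling endosome, and the 2 tested Rab11a probe sets had differences of opposite sign in culture. Rab11a (92854_at) read 638, 444 and 395 in tumor-free, 513, 477 and 556 in fresh and 781, 992 and 651 in cultured cells. All cultured arrays lie above all others, by 0.62 (adjusted p = 0.262) over fresh and 0.71 (adjusted p = 0.243) over tumor-free cells, but its other probe set, 96238_at, was at -0.67 (adjusted p = 0.46) and -0.25 (adjusted p = 0.839). Rab11b read 264, 368 and 347 in tumor-free, 229, 244 and 257 in fresh and 124, 221 and 209.9 in cultured cells, in 3 groups that do not overlap, with -0.42 (adjusted p = 0.495) for cultured against fresh and -0.82 (adjusted p = 0.192) for cultured against tumor-free. Rab4a, of fast recycling, read 13.9 to 16.9 in fresh and 23.9 to 42.5 in cultured cells (0.75, adjusted p = 0.422), and its relative Rab4b was at 0.09 (adjusted p = 0.917). Rab14, between early endosomes and the Golgi, has 3 tested probe sets, at -0.68, 0.02 and -0.99 in fresh against tumor-free cells (adjusted p = 0.345, 0.978 and 0.24). Rab25, known from epithelial cells, read 71.2, 57.5 and 77.5 in tumor-free and 131, 126 and 78.2 in fresh cells, barely apart between tumor-free 3 and fresh 3 (0.62, adjusted p = 0.312).

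Rabs of late endosomes and of the ER and Golgi were not called in any comparison. Rab7, the switch from early to late endosome and phagosome, was at 0.51 (adjusted p = 0.449) and 0.10 (adjusted p = 0.883) on its 2 probe sets for fresh against tumor-free, and at -0.39 (adjusted p = 0.633) and -0.35 (adjusted p = 0.649) in culture. Against tumor-free cells the cultured ones were at 0.12 and -0.24. The 95% intervals in culture, -1.13 to 0.34 and -1.02 to 0.33, leave room for changes of either sign. Rab9 read 475, 174 and 146 in tumor-free, 215, 179 and 199 in fresh and 380.3, 322 and 187 in cultured cells, with tumor-free 1 far above its pair (0.51, adjusted p = 0.622 in culture). Rab24, linked to autophagy, was at -0.16 (adjusted p = 0.856) in culture. Rab2a, which acts between the ER and Golgi, had differences of -0.01, 0.02 and 0.01 in the 3 comparisons. Rab1a (92882_at) was at 0.30 for fresh against tumor-free and -0.31 in culture. Rab18, of lipid droplets and the ER, read 333, 396 and 320.3 in tumor-free, 210.3, 216 and 239 in fresh and 254, 379 and 336 in cultured cells. Its fresh arrays lie below all others, at -0.64 (adjusted p = 0.2) against tumor-free cells and 0.51 (adjusted p = 0.307) in culture. Rab6a, of Golgi traffic, was at 0.02 (adjusted p = 0.985) and -0.91 (adjusted p = 0.502) on its 2 probe sets for cultured against tumor-free, and Rab33b at 0.29 (adjusted p = 0.567) and -0.31 (adjusted p = 0.57) for fresh against tumor-free. Of these 11 late endosome, ER and Golgi probe sets an unadjusted p below 0.05 was reached in limma once, by Rab18 in fresh against tumor-free cells.

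Syntaxins of endosomes, Golgi and ER had 6 tested probe sets, 1 per gene, and limma called none (3 at an unadjusted p below 0.05 in fresh against tumor-free cells and 0 in the others). Stx12, of recycling endosomes, read 217, 232 and 243 in tumor-free, 388, 351 and 286 in fresh and 293, 299 and 284 in cultured cells, with every tumor-free array below the others (0.54, adjusted p = 0.236 for fresh). Stx6, of the trans-Golgi network, read 26.6, 49 and 41 in tumor-free, 59.5, 61.2 and 102 in fresh and 54, 55.9 and 93.8 in cultured cells, again with tumor-free lowest (0.80, adjusted p = 0.249). With spike-in class as the block its difference in fresh cells was 1.02 (adjusted p = 0.0453). That block raised the calls over all probe sets too, and no other setting tried called Stx6 in this comparison. Stx8, of late endosomes, read 39.5, 36.8 and 54.3 in tumor-free, 10.3, 22.2 and 25.4 in fresh and 39.6, 22.1 and 48.3 in cultured cells, and was lower in all fresh than in all tumor-free arrays (-0.95, adjusted p = 0.212). Stx7, its partner in late endosome fusion, was at -0.06 (adjusted p = 0.917) for fresh against tumor-free, with an interval of -0.57 to 0.45. Stx5a of the Golgi and Stx18 of the ER were at -0.16 (adjusted p = 0.75) and 0.29 (adjusted p = 0.594) in the same comparison.

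**Figure D3:**
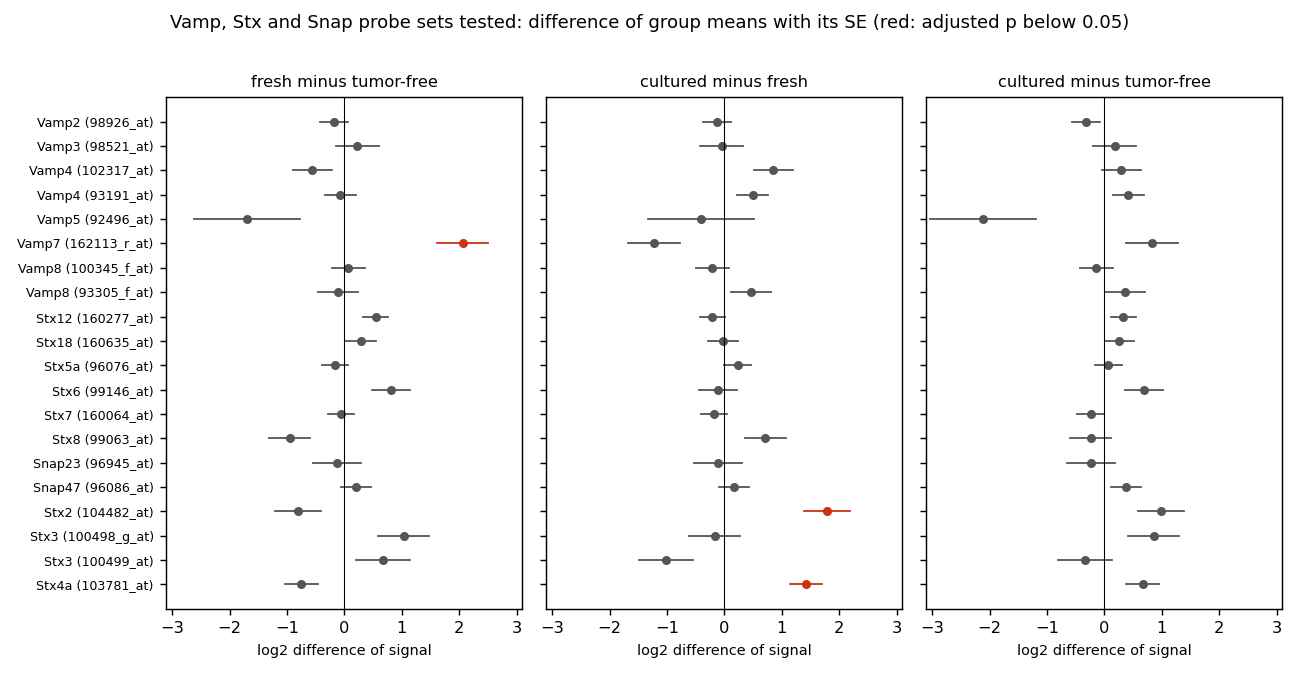
Difference between group means on the log2 scale (points) with its standard error (lines) for the 20 tested Vamp, Stx and Snap probe sets in the 3 comparisons; n = 3 arrays per group, and red marks an adjusted p below 0.05. Vamp7 is red for fresh against tumor-free and Stx2 and Stx4a for cultured against fresh, while the wide error of Vamp5 goes with tumor-free arrays at 4.69, 175.5 and 163.9.

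The remaining Rab-named genes are mostly for proteins that are not Rabs themselves, and none was called by limma (1, 2 and 4 of 7 tested probe sets at an unadjusted p below 0.05). Rab11fip5, which binds Rab11 on recycling endosomes, read 130.2, 51.5 and 45.8 in tumor-free, 74.1, 66.8 and 47.9 in fresh and 203, 194 and 84.4 in cultured cells. Every cultured array is above every fresh array, by 1.18 ± 0.43 (SE, adjusted p = 0.188), and the difference was called with spike-in class as the block (1.18, adjusted p = 0.021). That block raised the calls over all probe sets too, and no other setting tried called Rab11fip5 in this comparison. Rab3ip, an exchange factor for Rab8 as well as a Rab3 binding protein, was at 0.84 (adjusted p = 0.263) in culture on 95539_at and at -0.30 (adjusted p = 0.715) on 161209_r_at. Its probe set 95539_at was higher on every cultured than on every tumor-free array (37.6 to 100.1 against 19.9 to 35.1, a difference of 1.02, adjusted p = 0.218). Rab3il1, another exchange factor, read 68.1 to 90.0 in tumor-free, 47.4 to 56.4 in fresh and 47.2 to 52.8 in cultured cells, with the tumor-free group apart from both others by -0.51 (adjusted p = 0.314) and -0.59 (adjusted p = 0.302). For cultured against tumor-free cells Rab5if was at -0.72 (adjusted p = 0.337), and Rab28, which is itself a Rab and is known from cilia, at -0.24 (adjusted p = 0.889).

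The arrays that stood apart did so for some members too. Tumor-free 1 lay more than 1 log2 unit outside its pair for 10 of 61 members, 5 above and 5 below (16.4%, against 14.7% of all probe sets), fresh 3 for 2 (3.28% against 11.2%) and cultured 3 for 6 (9.84% against 10.4%). Vamp5, an R-SNARE best known from muscle, was the extreme case. It read 4.69, 176 and 164 in tumor-free, 6.01, 11.2 and 35.7 in fresh and 5.98, 3.1 and 24.7 in cultured cells. The 4 arrays of the low spike-in class have the 4 highest values, and the group differences were -1.70 (adjusted p = 0.368) and -2.11 (adjusted p = 0.335) against tumor-free cells; both were called without tumor-free 1. Rab6a (98927_at) split the same way, with 58.5, 243 and 266 in tumor-free, 76.4, 67.9 and 160.0 in fresh and 83.4, 49.1 and 124 in cultured cells. Rab9, Rab5a and Rab11fip5 had tumor-free 1 above its pair instead. Cell markers of tumor-free 1 also differed from those of its pair. The macrophage sum was 3674 against 10964 and 11892, and the B cell sum 156 against 1060 and 976. The plasma cell sum went the other way, at 2325 against 671 and 703. Fresh 3 and cultured 3 had the lowest macrophage sums of their groups (2199 and 2702). The B cell sum of cultured 3 was the highest of its group, 602 against 303 and 249. That of fresh 3 lay within its group, 353 against 338 and 392. What part such marker differences have in the Vamp5 and Rab6a values was not tested.

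**Figure D4:**
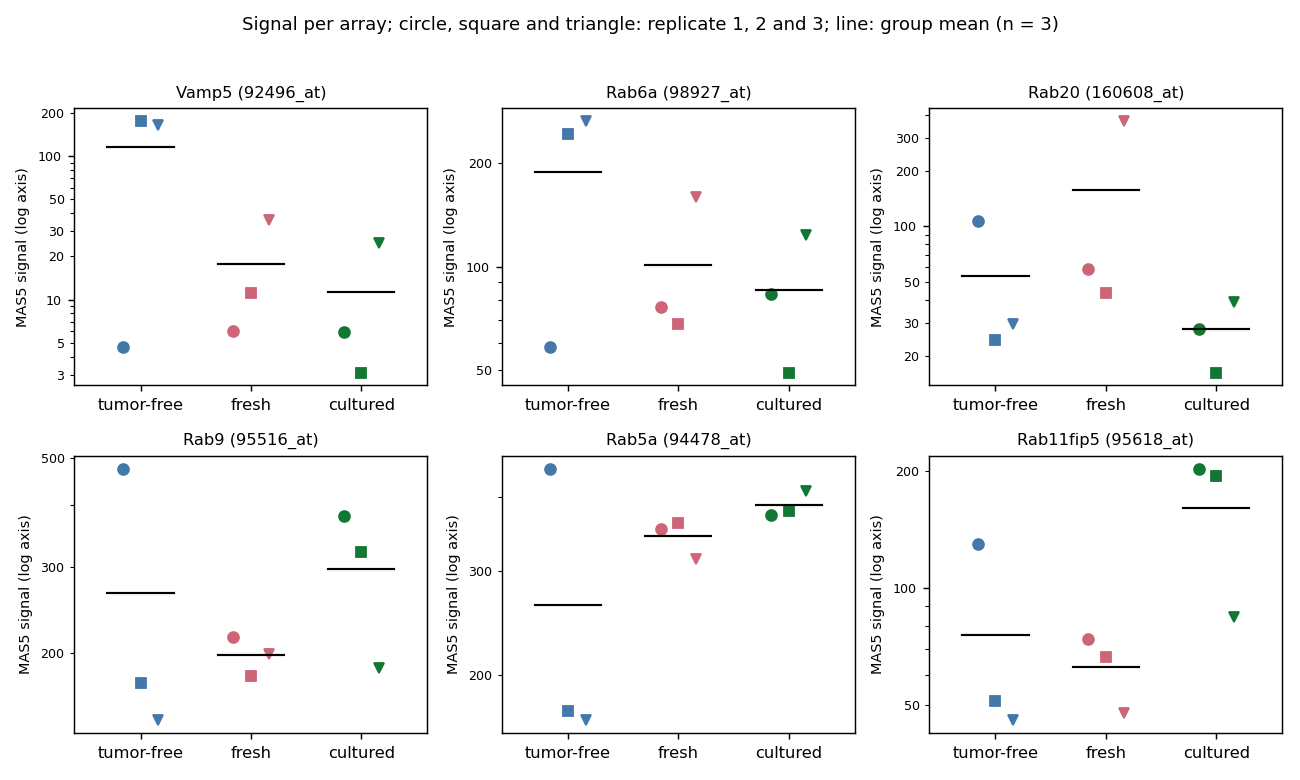
MAS5 signal (log axis, a range of its own for each panel) of 6 member probe sets in which 1 array of a group lies far from the other two; circles, squares and triangles are replicates 1, 2 and 3 and the line is the arithmetic mean (n = 3). For Vamp5 and Rab6a (98927_at) tumor-free 1 is far below its pair, for Rab9, Rab5a and Rab11fip5 far above it, and for Rab20 fresh 3 is the highest of all 9 arrays.

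Probe sets of 1 gene often differed in sign. Of 17 member genes with several probe sets 11 had several tested, and in the 3 comparisons 5, 4 and 6 of these had probe sets of opposite sign, none of them with a call on either side. Vamp8 was among them each time. Over the 9 arrays a tested member spanned a median range of 2.6-fold on the log2(signal + 7.83) scale, from 1.4-fold to 16.8-fold for Vamp5, and 16 of 61 stayed within 2-fold. Over all probe sets the median was 2.8-fold. The 95% interval of a member's difference had a median half-width of 0.70, unadjusted for the number of tests. A call needs a larger change than that, since its p is adjusted over all probe sets.

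Of the 18 member probe sets below the filter none read above 42.8 on any array. They leave 11 genes without a tested probe set: Rab3b, Rab17, Rab23, Rab26os, Rab33a, Rab34, Rab35, Snap25, Snap91, Stx1a and Vamp1. Several of these are best known from neurons or epithelia. Snap25, the neuronal partner of Stx1a, read 1.48 to 1.95 in tumor-free, 1.8 to 3.67 in fresh and 0.49 to 2.98 in cultured cells, and Stx1a 4.85 to 9.25 in tumor-free, 7.23 to 9.9 in fresh and 7.44 to 11.8 in cultured cells. Rab27a, Rab32 and Stx11, also known from granule release or phagosomes, had no member probe set and are not analysed here. Without detection calls, whether such signals lie above background is unknown.

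Other genes of the same machinery were taken from 6 lists, with 1 probe set per gene. Of 12 tested Rab cycle regulators none was called by limma in any comparison (3, 2 and 2 at an unadjusted p below 0.05). The Rab5 exchange factor Rin2 came closest, reading 166, 293 and 166 in tumor-free, 108, 105 and 80.6 in fresh and 229, 211 and 228 in cultured cells, with fresh cells lowest (1.14, adjusted p = 0.0522 in culture). Of 11 Rab effectors and tethers 1 rose in culture, Vps41, a subunit of the HOPS complex that tethers late endosomes to lysosomes. It read 98, 75.8 and 77.2 in fresh and 249, 167 and 155 in cultured cells, apart from each other by 1.10 ± 0.26 (SE, adjusted p = 0.0498). The Rab5 effector Eea1 read 43.9 to 71.3 in tumor-free, 108 to 184 in fresh and 103 to 153 in cultured cells (1.07, adjusted p = 0.1 for fresh against tumor-free). Of 8 other SNAREs none was called (0, 1 and 3 at an unadjusted p below 0.05), and of 16 SNARE regulators only Stxbp3 was, in cultured against tumor-free cells. The medians of these 4 lists were -0.12, -0.06, 0.27 and 0.20 in fresh against tumor-free cells and 0.42, 0.35, -0.02 and 0.06 in culture. Vps41 lost its call without tumor-free 2 or 3, fresh 1, 2 or 3, or cultured 1 or 2 (adjusted p up to 0.165), and with quantile normalization, median centring, the lower offset, no filter, only the 2 groups in the fit, no variance trend or averaged arrays (up to 0.449).

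Among 20 tested Arf family GTPases and regulators, which bud vesicles where Rabs and SNAREs receive them, 2 rose in fresh against tumor-free cells and 1 rose in culture, over both other groups. Cyth1, a cytohesin that activates Arf GTPases and regulates integrin adhesion, read 33.6, 17.4 and 3.88 in tumor-free, 124, 87.4 and 87.6 in fresh and 55, 44.6 and 50.5 in cultured cells. Fresh cells are highest, by 2.20 ± 0.42 (SE, adjusted p = 0.0246) over tumor-free cells. Its relative Cyth3 read 56.3, 66.7 and 75 in tumor-free, 178, 179 and 197 in fresh and 100.1, 106 and 46.4 in cultured cells, with fresh cells again highest by 1.39 ± 0.31 (SE, adjusted p = 0.0475). Arfgef1, an Arf exchange factor of the Golgi, read 342, 296 and 244 in tumor-free, 351, 346 and 332 in fresh and 926, 1024 and 829 in cultured cells, and cultured cells exceeded fresh cells by 1.41 ± 0.22 (SE, adjusted p = 0.00823) and tumor-free cells by 1.64 ± 0.22 (SE, adjusted p = 0.00798). The Arfgef1 calls were lost only without fresh 1 (adjusted p = 0.0508) and without tumor-free 3 (0.0547), respectively, with averaged arrays in both, and with only the 2 groups in the fit in the second (up to 0.392). Cyth1 lost its call without tumor-free 2 or 3 or fresh 1 or 2 (adjusted p up to 0.12), and with only the 2 groups in the fit or averaged arrays (up to 0.301). Cyth3 lost it without 7 of the 9 arrays, all except tumor-free 1 and cultured 3 (up to 0.171), and with median centring, the lower offset, no filter, no variance trend or averaged arrays (up to 0.453). None of 36 tested coat and adaptor genes was called (6, 4 and 1 at an unadjusted p below 0.05), with medians of -0.17, 0.19 and 0.04.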

How the data were processed

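Per the submitters' processing notes the deposited values are MAS5 signals, array intensity on a linear scale, 1 value per probe set and array; version and settings: not given in the sources used here. Per the labels' protocols 5 ug of total RNA per array gave biotin-labeled cRNA. The 2% trimmed means of the arrays lay between 100.06 and 100.08, so they had been scaled to a common level and were used as deposited.

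Signals were transformed to log2(signal + 7.83), the 20th percentile of all values. After 66 control probe sets and, by mean, the lowest 30% were removed, 8695 were kept. A model with 3 group means over 9 arrays was fitted in limma 3.58.1 (R 4.3.3), with an intensity trend and 6 residual degrees of freedom. Two-sided p-values were adjusted by Benjamini and Hochberg's method over all of these. The fit was also run on 10 simulated data sets per comparison, with 200 changed probe sets in each. It recovered 11.3 to 15.5% of changes of 1 log2 unit, 68.2 to 70.1% of 2 units and 94.8 to 96.7% of 4 units. On average 6.2 to 7.2 unchanged probe sets were called. Most changes of 1 log2 unit therefore went uncalled in the simulation.

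Symbols came from the platform annotation, which gave 1 symbol for 10855 probe sets, several for 396 and none for 1237. All 79 members matched RefSeq gene IDs, with 0 symbols changed. Named were called members, the 6 largest positive and 6 largest negative differences with non-overlapping groups per comparison, genes whose probe sets disagree, a set of members known in phagocytes, and up to 4 called genes per list. Other members, such as Vamp5 and Rab28, were chosen after their values were seen or by role. The members and lists were chosen with earlier results of these data known. Alternatives were other normalizations, offsets (2.11, the 5th percentile, and 24.7, the 40th) and filters, arrays left out, blocks, the fit on 2 groups, no variance trend, and the 2 closest arrays of each group averaged. The number of arrays limits the precision.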

Additional observations from a re-analysis of the deposited data

How the results depend on the processing

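The counts of called members were small and moved with the processing. For fresh against tumor-free cells the count of 1 became 0 with median centring, the 5th percentile offset, no filter, the 50% filter and averaged arrays, and 2 with spike-in class as the block. It was between 0 and 3 when 1 array was left out. For cultured against fresh cells the count of 3 became 0 with median centring and with averaged arrays, 1 with no filter and 1 with no variance trend, 4 with spike-in class as the block, and was between 0 and 3 with 1 array left out. For cultured against tumor-free cells the count of 1 became 2 with spike-in class as the block and 0 with only the 2 groups in the fit and with averaged arrays, and was between 0 and 4 with 1 array left out. The replicate block gave 1, 2 and 1 called members, and lost the calls of Rab10 in cultured against fresh cells, Cyth3 and Vps41. The labels do not say that replicate numbers pair arrays, and deviations of same-numbered arrays from their group means correlated between -0.20 and 0.26. The median member difference for cultured against fresh cells was 0.12 within the low spike-in class, where it rests on cultured 3 and fresh 3 alone. With 1 array left out it was between -0.048 and 0.087. For cultured against tumor-free cells it was 0.25 within the low class, from cultured 3 against tumor-free 2 and 3. With 1 array left out that median was between -0.021 and 0.20. No called member changed direction under the alternatives run. Over all probe sets the calls were 165, 234 and 107, against 277, 556 and 177 with spike-in class as the block and 23, 21 and 0 with averaged arrays. They were 14 for cultured against tumor-free cells with only these groups fitted. With 1 array left out they were 63 to 623, 74 to 489 and 24 to 529, the highest without tumor-free 1 each time. Why calls were lost was not tested. Where arrays were left out or averaged the fit also had fewer arrays, and that was not separated from the values of the arrays concerned. Signal over background is unknown for dim probe sets.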

Other observations

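Vamp1, an R-SNARE best known from neurons, fell below the filter and entered no test. Its probe set 93652_i_at read 7.64, 3.83 and 7.27 in tumor-free, 30.7, 15.6 and 37.7 in fresh and 10.7, 7.81 and 6.66 in cultured cells, so that every fresh array lies above every other array. Its second probe set, 93653_r_at, read 8.29, 2.67 and 2.8, 33.8, 8.23 and 1.95 and 6.79, 6.58 and 14.3, with only fresh 1 high. Of the signals of 93652_i_at 5 lie below the offset of 7.83, and this probe set was picked after its values were seen. The summed signals of the pancreatic acinar and of the neutrophil markers were also highest on the fresh arrays. Their part in the Vamp1 values was not tested. Rab2a has a probe set, 162141_r_at, with signals of 0.27 to 0.78 in tumor-free and 1.43 to 2.13 in fresh cells, all far below the offset of 7.83, where a level has little meaning.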
